A study of Mus musculus with 24 samples.

Results

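Protocadherin genes were measured in bulk RNA of mouse cortex. They were taken as every protein-coding gene of the deposited count table whose name begins with Pcdh and whose count was above 10 in at least 6 of the 24 libraries. This gave 56 genes of 43346 in the table. Of these, 44 belong to the 3 gene clusters on chromosome 18 (8 Pcdha, 22 Pcdhb and 14 Pcdhg genes) and 12 lie outside the clusters, the nonclustered protocadherins. All 56 also passed the filter on low counts of the test. The members just inside the count rule were Pcdh12, above 10 in 10 libraries, and Pcdhb1, above 10 in 12 libraries. The other members were above 10 in all 24 libraries, and no protein-coding Pcdh name failed the count rule.

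The 24 mice, of the background strain C57BL/6, all carried 1 Cx3cr1CreER allele, which makes a tamoxifen-dependent Cre recombinase under a microglial promoter. They carried either TREM2-WT+/+ or TREM2-R47H+/+, and TREM2 is a surface receptor found on microglia in the brain. Induced mice received tamoxifen, meant to start TREM2 production there, and control mice received the corn oil vehicle, so that 6 mice formed each of the groups WT control, WT induced, R47H control and R47H induced. The series text gives 3 males and 3 females per group, sex is not given per sample, ages are not given in the labels, and effects of tamoxifen itself and of induction cannot be told apart in these groups. The R47H change and any other difference between the mice of the 2 genotypes cannot be told apart.

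Protocadherins are cell adhesion molecules of the cadherin superfamily and are made mainly by neurons in the brain. The clustered genes each have their own promoter and a large first exon that encodes the whole extracellular part. In the Pcdha and Pcdhg clusters this variable exon is spliced to shared constant exons, whereas each Pcdhb gene is a single exon with no constant part. A neuron switches on a few of the alternate promoters, through CTCF, cohesin and DNA methylation, and thus gains a surface identity used in self-avoidance of its branches, while the C-type genes are read in most neurons. The nonclustered members act singly in axon growth, synapse assembly and adhesion together with N-cadherin.

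The libraries held 27933505 to 56082520 counts each. The endogenous Trem2 gene averaged 6.40, 6.61, 7.89 and 6.62 CPM (the usual count scaled by depth, here with TMM library sizes) in WT control, WT induced, R47H control and R47H induced. Genes of rRNA-like sequence took on average 15.9% of the counts in WT control, 18.3% in WT induced, 20.3% in R47H control and 17.0% in R47H induced. A list of 11 striatal neuron markers was lower in R47H than in WT mice. Its summed level ran from 1460 to 1680 CPM in WT control, 1554 to 1685 in WT induced, 1300.3 to 1437 in R47H control and 1300.5 to 1482 in R47H induced. None of the 11 was at 0, and all 11 had a negative log2 fold change in R47H against WT in both treatments. By edgeR's test 7 of them passed an adjusted p of 0.05 in control mice and 4 in induced mice. Of all tested genes, 3.04% and 3.22% were called lower in these comparisons. In bulk RNA, fewer cells of a type and less RNA per cell cannot be told apart.

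The promoters below belong to Pcdh17, Pcdh19 and Pcdh8, which are 3 of the 4 nonclustered members called in a comparison described further on. The other is Pcdh11x. Each runs from 250 bases before to 50 bases after the start of the gene, 5′ to 3′ on the strand of the gene, from RefSeq on GRCm38.p6. The Pcdh17 window lies at chr14:84443313-84443612 on the plus strand, the Pcdh19 window at chrX:133688944-133689243 on the minus strand and the Pcdh8 window at chr14:79771263-79771562 on the minus strand. Capitals mark a Sp1 box (GGGCGG, or CCGCCC when read on the other strand) in Pcdh17 and Pcdh19, and a TATA box (TATAAA) in Pcdh8.
Pcdh17: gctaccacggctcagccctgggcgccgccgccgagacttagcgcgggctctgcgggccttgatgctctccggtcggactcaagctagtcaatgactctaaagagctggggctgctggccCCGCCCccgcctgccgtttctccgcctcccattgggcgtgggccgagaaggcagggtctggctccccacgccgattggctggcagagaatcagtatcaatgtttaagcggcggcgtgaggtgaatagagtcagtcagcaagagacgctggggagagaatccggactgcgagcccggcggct
Pcdh19: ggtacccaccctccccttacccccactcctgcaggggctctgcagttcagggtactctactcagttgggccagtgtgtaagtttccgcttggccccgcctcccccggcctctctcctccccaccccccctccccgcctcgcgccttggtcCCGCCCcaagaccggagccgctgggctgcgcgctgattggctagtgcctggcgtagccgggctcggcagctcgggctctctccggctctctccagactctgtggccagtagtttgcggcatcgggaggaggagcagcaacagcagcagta
Pcdh8: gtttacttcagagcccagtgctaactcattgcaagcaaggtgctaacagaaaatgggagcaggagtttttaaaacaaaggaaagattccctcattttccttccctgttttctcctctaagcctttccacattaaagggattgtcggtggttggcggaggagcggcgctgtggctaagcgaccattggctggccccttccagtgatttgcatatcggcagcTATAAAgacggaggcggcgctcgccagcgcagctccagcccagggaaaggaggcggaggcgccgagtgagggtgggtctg

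The motifs were searched on both strands in the 10 promoter windows that the RefSeq table holds for 9 of the 12 nonclustered members. The windows of Pcdh9, from 93890620 and from 93890630, overlap. The Sp1 box was present in 4 of the 10 windows, of Pcdh10, Pcdh17, Pcdh18 and Pcdh19, against 35.7% of all 32851 windows of the table. The TATA box was present in 2, of Pcdh8 at 30 bases and Pcdh15 at 33 bases before the RefSeq start, against 13.6% of all windows. The Pcdh15 window begins at 73821617, inside the deposited gene span of 73099342 to 74649737 and not at its start. The cAMP response element (TGACGTCA, the same on both strands) was in none of the 10 and in 1.79% of all. The short CGCT sequence, known as the core of the conserved element of clustered protocadherin promoters, was in all 10 of these nonclustered windows and in 61.8% of all windows. The windows of Pcdh17, Pcdh19 and Pcdh8 held 65.0%, 67.7% and 54.3% G and C bases, against a median of 52.7% over all windows. No sequence of chromosome 18, which also holds Pcdh1 and Pcdh12, is shown.

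Among the nonclustered members, levels per kilobase of exon spanned a wide range. Pcdh1 had the highest mean over the 24 libraries at 28.0 CPM per kilobase, followed by Pcdh9 at 21.9, Pcdh7 at 18.8 and Pcdh10 at 16.6. These are delta protocadherins, of which Pcdh10 is known for axon growth and synapse elimination and Pcdh7 for axon guidance. A middle group was formed by Pcdh17 at 9.63, Pcdh8 at 7.25, Pcdh20 at 5.56, Pcdh19 at 4.71 and Pcdh11x at 2.62 CPM per kilobase. The place of Pcdh17 depends on the gene model, since its deposited length is 9509 bases, against 12991 exonic bases in GENCODE vM21. Pcdh18, which binds the adaptor Dab1, was at 1.47, and Pcdh15, part of the tip links of inner-ear hair cells, was at 1.07. Pcdh12, an endothelial protocadherin, was lowest at 0.0442 CPM per kilobase, with 6 to 18 reads per library. The 5 members Pcdh1, Pcdh7, Pcdh9, Pcdh10 and Pcdh15 had log2 fold changes between -0.04 and 0.05 in each of the 4 comparisons of 1 group with another.

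Tamoxifen induction was compared with corn oil within each genotype, in a fit over all 24 libraries with edgeR's quasi-likelihood test and Benjamini-Hochberg adjustment over 19678 genes. No protocadherin passed an adjusted p of 0.05 in WT or in R47H mice, nor did any gene of the table by this test, so that the background was 0% called in both. At an unadjusted p under 0.05 there were 4 members in WT (Pcdh17, Pcdh11x, Pcdh18 and Pcdh20) and 1 in R47H (Pcdh17), against 1545 and 1006 of all tested genes. limma-voom called 0 members in both, and DESeq2 called 1 in WT, Pcdh17, among 10 genes of the table, and 0 in R47H, among 2.

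Pcdh17 (ENSMUSG00000035566, chromosome 14, 84443563 to 84537060 on mm10) is a delta protocadherin known in mice for presynaptic assembly in corticostriatal circuits. Its CPM ran from 85.1 with a median of 90.2 to 92.8 in WT control and from 96.1 with a median of 97.5 to 103 in WT induced. In R47H it ran from 86.5 with a median of 90.9 to 96.4 in control and from 84.4 with a median of 87.4 to 90.5 in induced mice. Every WT induced mouse was above every WT control mouse, while the R47H groups overlapped, with the induced group centred lower. The log2 fold change on induction was 0.13 ± 0.03 (SE) in WT, with an adjusted p of 0.452, and -0.06 ± 0.03 in R47H, with an adjusted p of 0.963. Pcdh17 had the fifth lowest unadjusted p of all tested genes in the WT comparison (0.000129). DESeq2 gave the same 0.13 in WT with an adjusted p of 0.0362.

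The difference of the inductions, R47H minus WT, was -0.19 ± 0.04 for Pcdh17 (unadjusted p 8.28e-05, adjusted p 0.410). It was -0.28 ± 0.10 for Pcdh18, -0.19 ± 0.09 for Pcdh20 and -0.90 ± 0.37 for Pcdh12, which were the other members under an unadjusted p of 0.05. Their adjusted p ran from 0.562 to 0.616. No member and no gene of the table was called by edgeR (background 0%). limma-voom called 0 members, and DESeq2 called 1, Pcdh17, among 3 genes of the table, with a difference of -0.19 and an adjusted p of 0.0441. The 4 members under an unadjusted p of 0.05, of 56, stand beside 1562 of all 19678 tested genes, a like share. Pcdh18 ran from 6.95 with a median of 7.42 to 8.0 CPM in WT control and from 7.40 with a median of 8.56 to 9.43 in WT induced. Its R47H groups ran from 6.70 with a median of 8.30 to 9.0 in control and from 6.86 with a median of 7.34 to 8.49 in induced mice. The groups of Pcdh18 overlapped in both genotypes.

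With the genotypes averaged, induction called no member and no gene (background 0%) by edgeR. Of the members, 2 had an unadjusted p under 0.05, Pcdh11x at a log2 fold change of 0.08 ± 0.03 and Pcdhb15 at -0.13 ± 0.06, against 913 of all tested genes. limma-voom and DESeq2 called 0 members. Pcdhb15 also had one of the lowest p of the members on induction in R47H, at -0.15 ± 0.09, together with Pcdh12 at -0.38 ± 0.26, both with an adjusted p of 0.9995. The family medians of the averaged induction were 0.01 for the Pcdha, 0.05 for the Pcdhb, -0.03 for the Pcdhg and 0.03 for the nonclustered members, beside a median of 0.00 over all tested genes.

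R47H was next compared with WT in the corn oil controls. Of the 56 members 3 were called, all nonclustered and all higher in R47H, namely Pcdh19, Pcdh11x and Pcdh8. This was 3 of 56 against 5.74% of all tested genes called in either direction, 2.69% called higher and 3.04% called lower. With library totals in place of the TMM scaling, 9 members were called, 1 higher (Pcdh19) and 8 lower, beside 6.77% of all tested genes in either direction. That scaling moved the median of all genes from 0.00 to -0.06, and Pcdh11x was then at 0.14 and Pcdh8 at 0.12. With the rRNA-like share or the striatal list as a covariate, 0 members were called and 2.29% and 0.838% of all genes.

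Pcdh19 (ENSMUSG00000051323, chromosome X, 133582860 to 133688987) is an adhesion partner of N-cadherin, and its human counterpart is mutated in an X-linked epilepsy. It ran from 42.7 with a median of 45.9 to 48.0 CPM in WT control and from 49.0 with a median of 52.6 to 55.3 in R47H control, with no overlap. In induced mice it ran from 44.8 with a median of 48.3 to 51.4 in WT and from 49.3 with a median of 50.8 to 53.4 in R47H, and the groups overlapped. The log2 fold change was 0.19 ± 0.04 in control mice (adjusted p 0.00257) and 0.09 ± 0.04 in induced mice (adjusted p 0.187). Averaged over treatments it was 0.14 ± 0.03 (adjusted p 0.000665). The covariate for the rRNA-like share gave 0.12 (adjusted p 0.0905) in control mice and that for the striatal list gave 0.17 (adjusted p 0.142).

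Pcdh11x (ENSMUSG00000034755, chromosome X, 120290259 to 120910619), a delta protocadherin, ran from 30.3 with a median of 33.7 to 35.0 CPM in WT control and from 36.1 with a median of 37.8 to 41.0 in R47H control. These groups did not overlap. In induced mice it ran from 34.7 with a median of 36.3 to 36.8 in WT and from 36.1 with a median of 38.4 to 43.7 in R47H, which overlapped only in the range between 36.1 and 36.8. The log2 fold change was 0.20 ± 0.04 in control mice (adjusted p 0.00599), 0.12 ± 0.04 in induced mice (adjusted p 0.0992) and 0.16 ± 0.03 on average (adjusted p 0.000616). The covariates gave 0.14 (adjusted p 0.122, rRNA-like share) and 0.18 (adjusted p 0.187, striatal list) in control mice.

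Pcdh8 (ENSMUSG00000036422, chromosome 14, 79766775 to 79771312), also called arcadlin, is induced by neuronal activity and promotes the uptake of N-cadherin from synapses. It ran from 29.1 with a median of 30.5 to 32.4 CPM in WT control and from 32 with a median of 34.2 to 37.7 in R47H control, which overlapped. In induced mice it ran from 29.9 with a median of 31.7 to 35.2 in WT and from 31.0 with a median of 33.5 to 38.4 in R47H. The log2 fold change was 0.17 ± 0.05 in control mice (adjusted p 0.0425), 0.09 ± 0.05 in induced mice (adjusted p 0.357) and 0.13 ± 0.04 on average (adjusted p 0.0144). The control call was lost when 1 of 9 libraries was left out (WT control replicates 1, 3, 4, 5 and 6, WT induced replicate 2, or R47H control replicates 3, 4 and 5), at adjusted p of up to 0.106. The covariates gave 0.22 (adjusted p 0.0512, rRNA-like genes) and 0.17 (adjusted p 0.300, striatal list) in control mice, beside 0.17 without them. For these 3 genes the difference between the genotype effects in control and induced mice was -0.10 ± 0.05, -0.08 ± 0.06 and -0.09 ± 0.07, with a lowest adjusted p of 0.649.

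**Figure D1:**
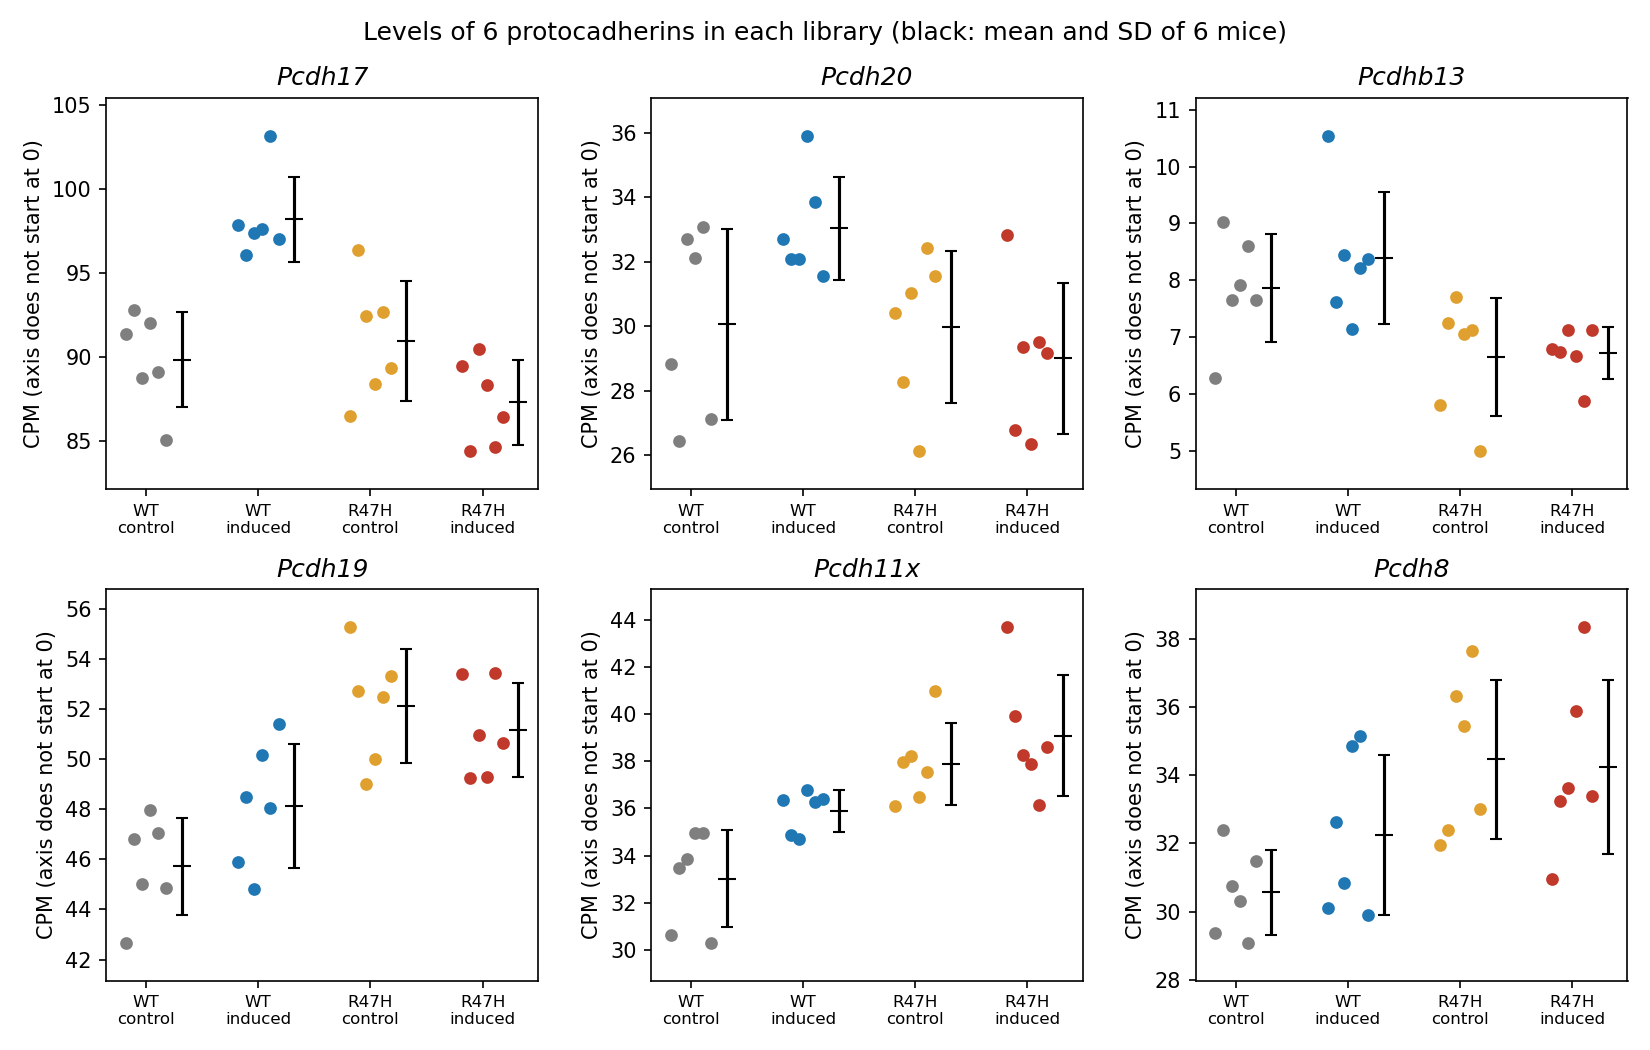
CPM of 6 protocadherins in each of the 24 libraries, by group (points, n = 6 mice each), with the mean and SD in black. The vertical axes do not start at 0. The Pcdh17 values of WT induced mice (96.1 to 103) lie above those of R47H induced mice (84.4 to 90.5), and the R47H control values of Pcdh19 (49.0 to 55.3) lie above the WT control values (42.7 to 48.0).

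In tamoxifen-treated mice, 2 members were called, both lower in R47H: Pcdh17 and the clustered Pcdhb13. This was 2 of 56 against 5.8% called in either direction, 2.59% called higher and 3.22% called lower among all tested genes. With library totals in place of TMM 2 members were called, 1 higher and 1 lower (Pcdh17), beside 4.04% of all tested genes. The log2 fold change of Pcdh17 was -0.17 ± 0.03 (adjusted p 0.000471), and all 6 R47H induced mice lay below all 6 WT induced mice. In control mice the same gene had a log2 fold change of 0.02 ± 0.03. The call held under each alternative tried, with log2 fold changes from -0.20 to -0.14. With the striatal list as a covariate it was -0.20 (adjusted p 0.00878), and with each library left out in turn it ran from -0.18 to -0.16.

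Pcdhb13 (ENSMUSG00000047307, chromosome 18, 37442500 to 37446209) ran from 7.15 with a median of 8.29 to 10.5 CPM in WT induced and from 5.87 with a median of 6.76 to 7.13 in R47H induced. These groups did not overlap. In control mice it ran from 6.29 with a median of 7.79 to 9.03 in WT and from 4.99 with a median of 7.09 to 7.70 in R47H, which overlapped. The log2 fold change was -0.32 ± 0.10 in induced mice (adjusted p 0.0487) and -0.23 ± 0.10 in control mice (adjusted p 0.164). The induced call was lost when any 1 of 17 libraries was left out, at adjusted p of up to 0.143 without WT induced replicate 1. It held only without WT control replicates 1 or 2, WT induced replicates 2 or 4, or R47H control replicates 1, 3 or 6. The striatal covariate gave -0.24 (adjusted p 0.436).

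Pcdh20 (ENSMUSG00000050505, chromosome 14, 88464743 to 88471396) was not called in induced mice, at -0.19 ± 0.06 and an adjusted p of 0.0601. It ran from 31.6 with a median of 32.4 to 35.9 CPM in WT induced and from 26.3 with a median of 29.3 to 32.8 in R47H induced, and DESeq2 called it at an adjusted p of 0.0361. In the same comparison Pcdh18 was at -0.17 ± 0.07 and Pcdh12 at -0.61 ± 0.25, with adjusted p of 0.183 and 0.169. The median over the 12 nonclustered members was 0.01, beside 0.00 over all tested genes.

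**Figure D2:**
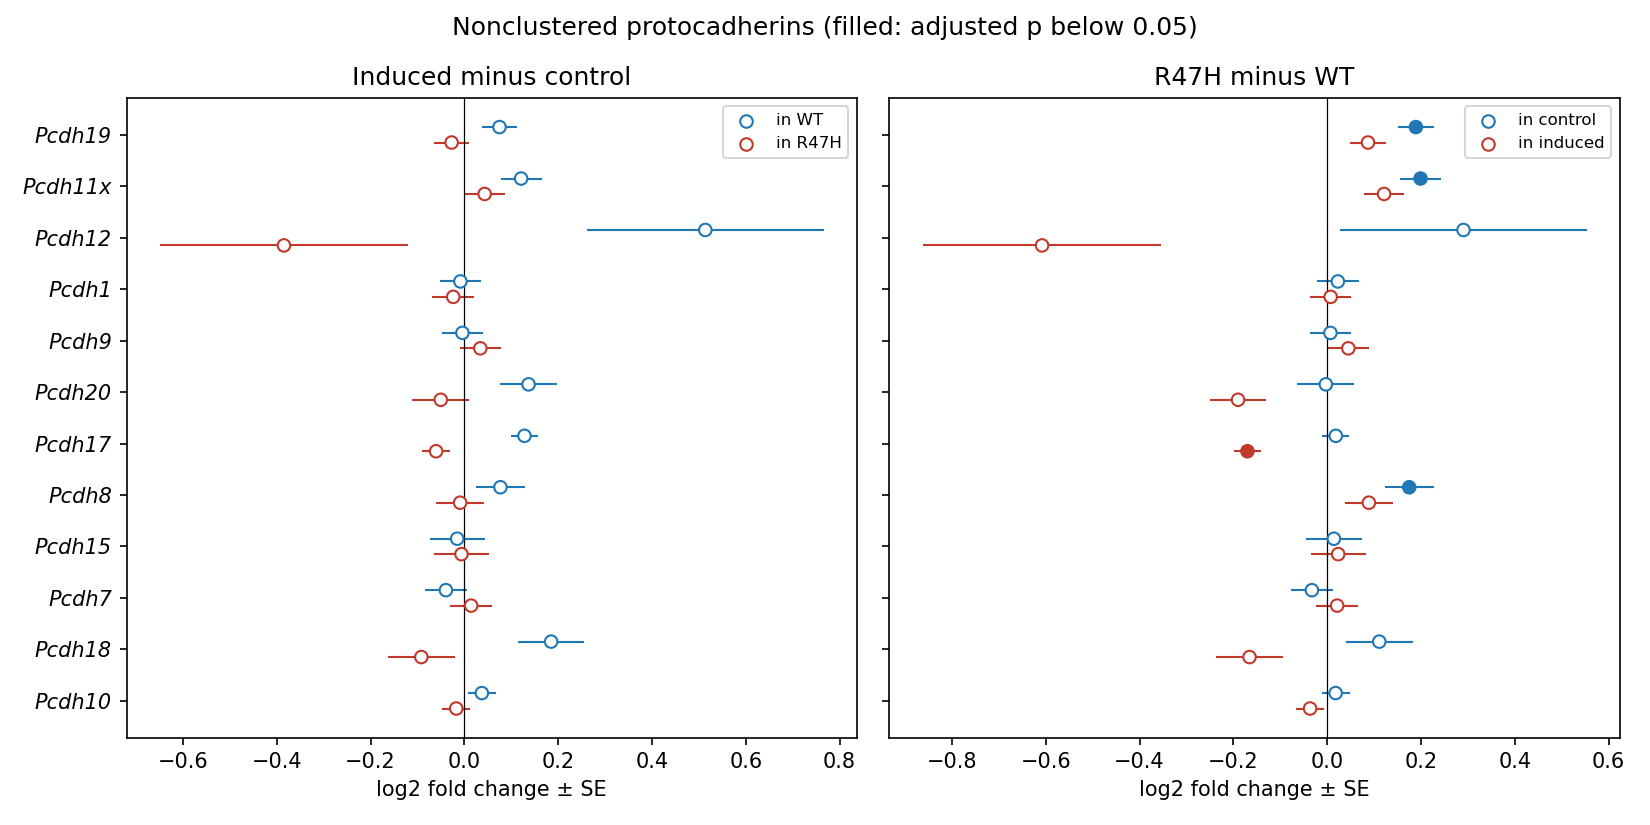
Log2 fold changes (points) with their SE (bars) of the 12 nonclustered members, for induced minus control in each genotype (left) and R47H minus WT in each treatment (right). Filled points passed an adjusted p of 0.05: Pcdh19, Pcdh11x and Pcdh8 in control mice and Pcdh17 in induced mice.

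Averaged over treatments, R47H against WT called 13 members, against 13.8% of all tested genes. Of these, 3 were higher (Pcdh11x, Pcdh19 and Pcdh8; 6.65% of all genes were called higher) and 10 lower (the 8 Pcdha genes, Pcdhb13 and Pcdh17; 7.2% of all genes were called lower). Pcdhb13 was at -0.28 ± 0.07 (adjusted p 0.00689) and Pcdh17 at -0.08 ± 0.02 (adjusted p 0.0120). No Pcdhg gene was called. The 8 Pcdha genes were all at -0.07, with adjusted p from 0.0181 for Pcdha9 to 0.0318 for Pcdha5, and the 14 Pcdhg genes between -0.04 and -0.03. With the striatal list as a covariate 0 members were called, beside 2.23% of all genes, and the Pcdha genes were between -0.11 and -0.09 with adjusted p from 0.0987 to 0.194. The striatal list was itself lower in R47H, so that this covariate overlaps with genotype, here and in the comparisons above. A call lost under it therefore does not show what the difference rests on. The part of the striatal markers and of the rRNA-like share in these genotype differences was not tested beyond these covariates.

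The 8 Pcdha calls are not 8 independent results, because the rows of a cluster count nearly the same reads. Within each library the counts of the 8 Pcdha genes differed by at most 1.06-fold, and those of the 14 Pcdhg genes by at most 1.04-fold. Across libraries the median correlation of log2 CPM between pairs was 0.983 in Pcdha and 0.994 in Pcdhg, as a description of rows that share their reads. The group means were not taken out there. In GENCODE vM21, where 53 of the 56 members have the same span as in the table, all Pcdha rows share 2860 exonic bases and all Pcdhg rows share 2116, the constant exons. The counting options are not stated, and a Pcdha or Pcdhg count is read here as a measure of its cluster. Pcdha9 ran from 101 with a median of 107 to 112 CPM in WT control and from 103 with a median of 108 to 111 in WT induced. It ran from 98.2 with a median of 102 to 105 in R47H control and from 98.6 with a median of 103 to 108 in R47H induced, so that the genotypes overlapped in both treatments.

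To set aside the reads that all rows share, each count was taken beyond the row with the lowest total among the members, Pcdha8 or Pcdhgb4. What is left is not specific to a variable exon in each row, since Pcdha4 has only 404 of 5768 exonic bases of its own and Pcdhga10 has 0. Per library, Pcdha8 had 2877 to 5344 reads and Pcdhgb4 8073 to 17120. Beyond this level Pcdha4 had a median of 196.5 reads, or 4.89% of its count, Pcdha9 had 167.5, or 4.08%, and Pcdha3 had 86, or 2.09%. Among the 14 Pcdhg members, the C-type Pcdhgc4 had the most, a median of 397.5 reads, or 3.20% of its count, followed by Pcdhga7 at 327 and Pcdhga6 at 319.5, while Pcdhga1 had 3 and was below the reference in 12 libraries. Group means for Pcdhgc4 were 9.95 ± 1.18 CPM in WT control, 9.70 ± 1.69 in WT induced, 10.3 ± 1.24 in R47H control and 9.996 ± 0.979 in R47H induced (SD, n = 6). On these reads, an alternative chosen after seeing the data, 18 Pcdha and Pcdhg genes were tested. The lowest rows have no such reads, and Pcdhga1 and Pcdhgb5 were left out because they were below Pcdhgb4 in 12 and 2 libraries. None of the 18 was called by edgeR in any of the 7 comparisons, and 3 was the highest number with an unadjusted p under 0.05. The averaged genotype comparison then called 6 of 54 members, 3 higher and 3 lower, beside 13.8% of all tested genes. The 54 include Pcdha8 and Pcdhgb4 at their full counts, so that the shared reads are not set aside in those rows.

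The table lists 13 further protein-coding rows of the clusters under upper-case names, which the naming rule leaves out, with several rows under 1 name. By gene ID they are Pcdha1, Pcdha2, Pcdha11, Pcdha12 and the C-type Pcdhac1 and Pcdhac2, and Pcdhga3, Pcdhga8, Pcdhga9, Pcdhga11, Pcdhga12 and the C-type Pcdhgc3 and Pcdhgc5. A further upper-case protein-coding row, whose gene ID has no Pcdh name, was left aside. Of the 5 C-type genes, 3 stood apart from the alternate genes in reads beyond the lowest row. Pcdhac2 had a median of 1526.5 such reads, or 28.3% of its count, Pcdhgc5 had 3674, or 23.1%, and Pcdhgc3 had 1889, or 13.8%. Of the alternate genes, Pcdha12 had the most in its cluster at 349.5 and Pcdhga11 at 574. The C-type genes Pcdhac1, at 142 or 3.67%, and Pcdhgc4, at 397.5 or 3.20%, lay within the range of the alternate genes.

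On the same reads, Pcdhgc5 averaged 103 ± 5.52 CPM in WT control, 96.0 ± 4.77 in WT induced, 89.8 ± 3.91 in R47H control and 86.6 ± 5.59 in R47H induced (SD, n = 6). It fell in R47H against WT, with a log2 fold change of -0.20 ± 0.04 in control mice (adjusted p 0.00451) and -0.15 ± 0.04 in induced mice (adjusted p 0.0315). Pcdhga12 and Pcdhac1 also fell in control mice, at -0.37 ± 0.10 (adjusted p 0.0341) and -0.41 ± 0.10 (adjusted p 0.0140). In induced mice these were at -0.26 ± 0.10 (adjusted p 0.144) and -0.05 ± 0.10 (adjusted p 0.836). These 3 genes are no members by the naming rule, and they were picked from the 13 rows after their values were seen. Of all tested genes in this alternative, 5.72% were called in control mice and 5.82% in induced mice. On their full counts edgeR called none of the 3 in either treatment, with a lowest adjusted p of 0.130. Averaged over treatments, the full counts called Pcdhac1 (adjusted p 0.0145) and Pcdhgc5 (adjusted p 0.0318). The covariates were not applied to these reads. Pcdha1, which was below Pcdha8 in 1 library, was not tested on these reads.

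**Figure D3:**
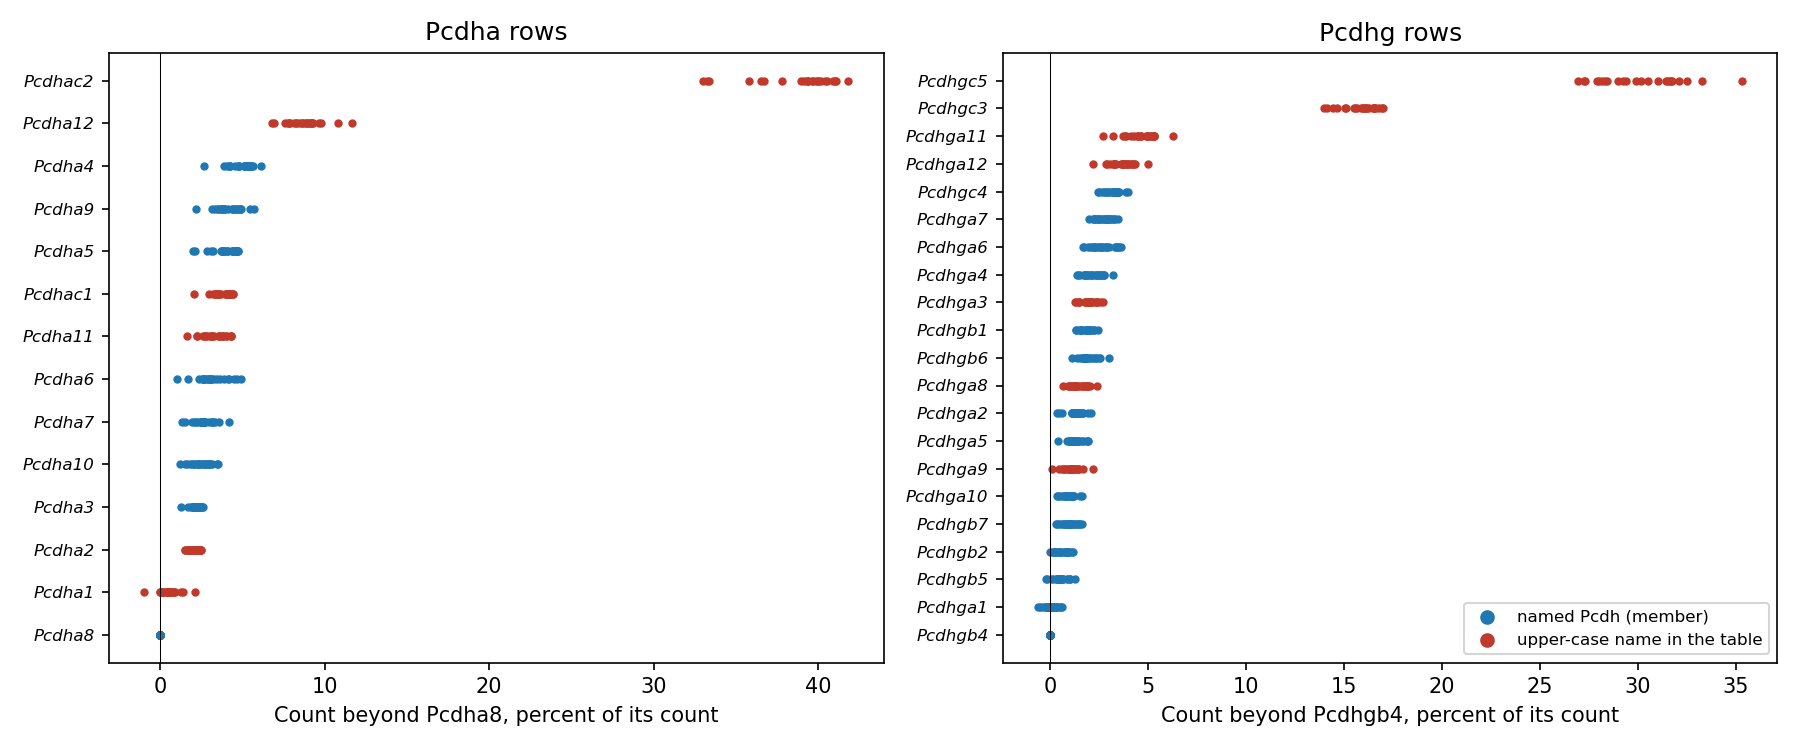
Count of each Pcdha row (left) and Pcdhg row (right) beyond the row with the lowest total, as a percent of the count of that lowest row (in the text, of the gene's own count), with 1 point for each of the 24 libraries. Blue rows are members and red rows are listed under upper-case names. The C-type genes Pcdhac2, Pcdhgc5 and Pcdhgc3 stand apart from the other rows, whose counts lie close to the lowest row.

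The Pcdhb genes have no constant exon, and all but Pcdhb12, Pcdhb21 and Pcdhb22 share no exonic base with another gene in GENCODE vM21. Pcdhb12 shares 1927 of its 3034 exonic bases (63.5%) with another gene, so that its count is uncertain, and Pcdhb21 and Pcdhb22 share 455 bases each. Their mean level per kilobase ran from 0.126 CPM for Pcdhb1 to 3.92 for Pcdhb9. Pcdhb17 was at 3.77, Pcdhb20 at 3.71, Pcdhb7 at 3.46 and Pcdhb3 at 2.69. The Pcdha rows were at 18.3 (Pcdha4) to 20.1 (Pcdha5) and the Pcdhg rows at 46.5 (Pcdhgb5) to 67.8 (Pcdhgb6) CPM per kilobase, with the shared reads counted in each. Of the 22 Pcdhb genes only Pcdhb13 was called in any of the 7 comparisons.

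The Pcdhb genes had the highest median variation between mice of a group among the 4 sets of members. The sets are not alike, since each Pcdha or Pcdhg row counts the shared reads of its cluster. Mean levels were 100.7 CPM (Pcdha8) or more in the Pcdha and Pcdhg rows and 17.6 CPM (Pcdhb17) or less in the Pcdhb genes. The biological coefficient of variation of the fit had a median of 0.145 over the 22 Pcdhb genes, against 0.0391 in Pcdha, 0.0465 in Pcdhg, 0.0586 in the nonclustered members and 0.0804 over all tested genes. It was 0.208 to 0.325 for Pcdhb2 to Pcdhb8, at the 5′ end of the cluster, and 0.370 for the rarely read Pcdhb1. From Pcdhb15 to Pcdhb22, at the other end, it was 0.0612 (Pcdhb17) to 0.129 (Pcdhb21). Pcdhb3 ran from 6.13 with a median of 9.78 to 10.8 CPM in WT control and from 8.76 with a median of 11 to 14.5 in WT induced. It ran from 5.43 with a median of 9.44 to 14.95 in R47H control and from 5.81 with a median of 11.1 to 15.6 in R47H induced. The R47H groups spanned the widest ranges, while the WT control mice did not reach the high levels of the other groups and the WT induced mice did not reach their low levels. All 4 groups overlapped.

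Pcdhb2 to Pcdhb8 were high or low together in the same mice. After the group means were taken out, the correlation of their log2 CPM across 24 libraries had a median of 0.873 over the 21 pairs and was above 0.7 in all 21. The block was not fixed before these data were seen, so that these values describe it and are no test. Over all 231 pairs of Pcdhb genes the median was 0.384. Pcdhb9 and Pcdhb12 ran against this block, with correlations of -0.76 and -0.72 to Pcdhb3, and with each other at 0.843. Other Pcdhb genes also ran with the block, so that its limits are not sharp: Pcdhb1 was at 0.695 to 0.800 with its members, Pcdhb11 at 0.675 to 0.845 and Pcdhb22 at 0.593 to 0.773. The summed level of Pcdhb2 to Pcdhb8 ran from 36.1 with a median of 51.6 to 62.6 CPM in WT control, from 47.5 with a median of 56.9 to 77.6 in WT induced, from 35.2 with a median of 51.8 to 78.6 in R47H control and from 33.4 with a median of 58.6 to 81.9 in R47H induced.

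**Figure D4:**
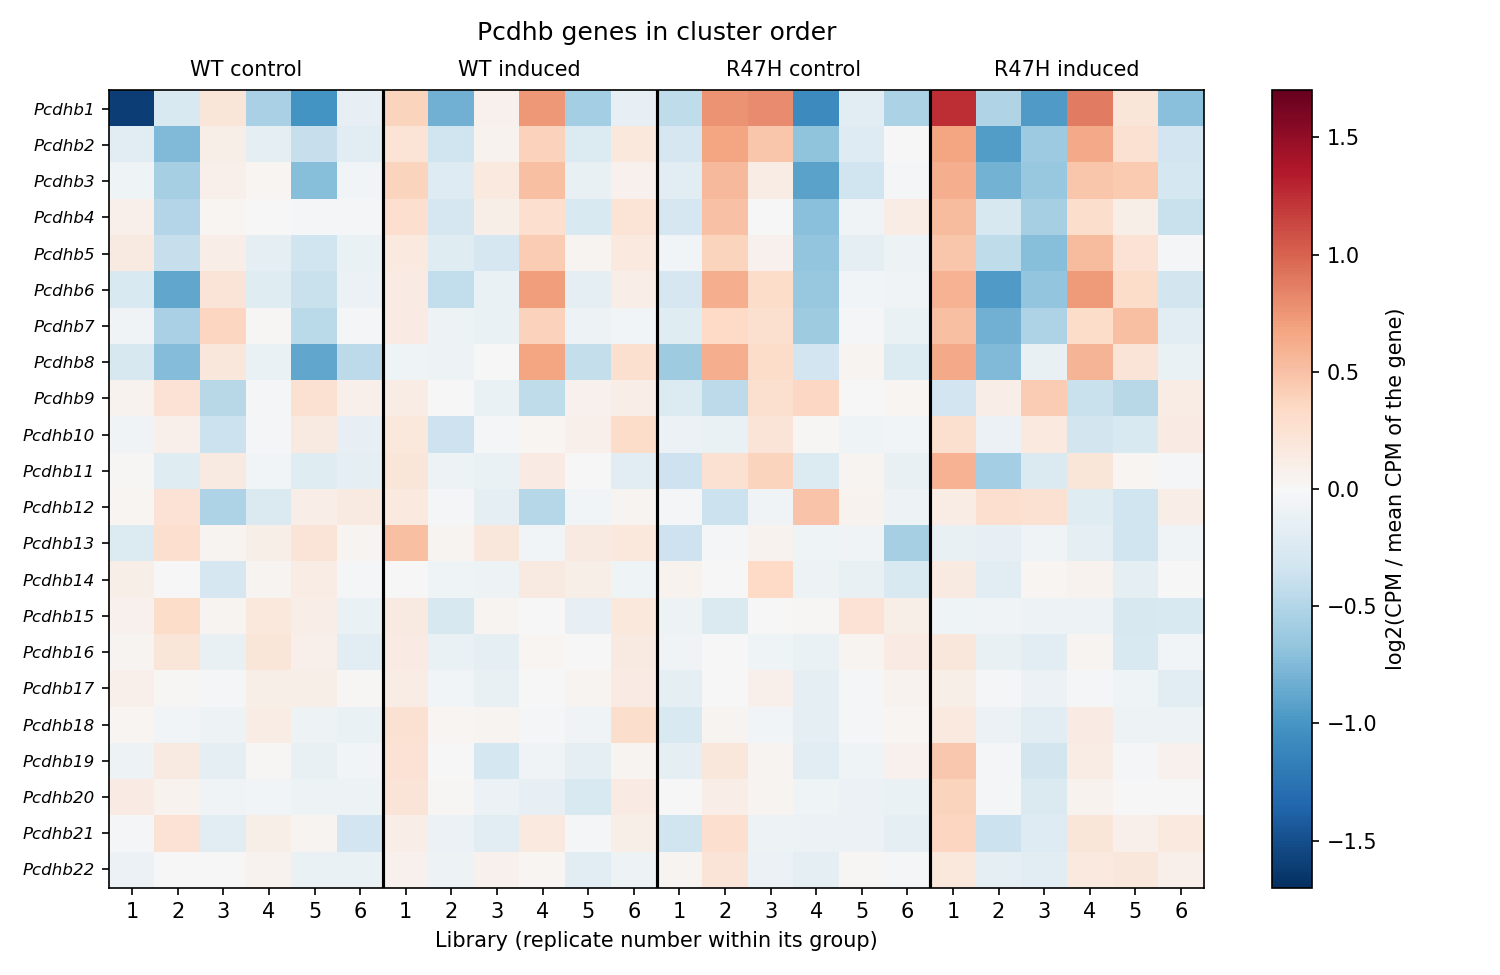
Log2 ratio of the CPM of each Pcdhb gene to its mean over the 24 libraries (colour), with the genes in cluster order from top to bottom and the 6 libraries of each group side by side. Pcdhb2 to Pcdhb8 are high together in R47H induced replicates 1 and 4 and low together in R47H induced replicates 2 and 3, and Pcdhb9 and Pcdhb12 show the opposite sign in most of these libraries.

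Among the 21 pairs of neighbouring Pcdhb genes, tested by permutation across the 24 libraries with Benjamini-Hochberg adjustment over the pairs, the correlation was high from Pcdhb1 to Pcdhb8 and changed sign between Pcdhb8 and Pcdhb9. Pcdhb7 and Pcdhb8 had a Pearson's r of 0.822 and a Spearman's rho of 0.820, each with a permutation p of 1e-05, the smallest that these permutations can give (adjusted p 2.62e-05 for r), and r was 0.813 without the 2 most extreme libraries. Pcdhb8 and Pcdhb9 had an r of -0.62 and a rho of -0.53, with adjusted p of 0.00297 and 0.0101, and r was -0.54 without the 2 libraries. Pcdhb9 and Pcdhb10 had an r of 0.531 and Pcdhb11 and Pcdhb12 an r of -0.43 (adjusted p 0.0476 by permutation). The pairs Pcdhb10 and Pcdhb11, Pcdhb12 and Pcdhb13, Pcdhb13 and Pcdhb14, and Pcdhb14 and Pcdhb15 had an r of 0.108, 0.165, 0.222 and -0.04, with a lowest adjusted p of 0.346. In the last part of the cluster, the 7 pairs from Pcdhb15 to Pcdhb22 had an r between 0.549 and 0.806. These correlations rest on mice of 4 groups, whose means were not taken out in the permutation tests, and on counts from the same libraries. With the group means taken out, r was 0.854 for Pcdhb7 and Pcdhb8 and -0.63 for Pcdhb8 and Pcdhb9. The block was known when these pairs were singled out, so that their p are no test of it.

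**Figure D5:**
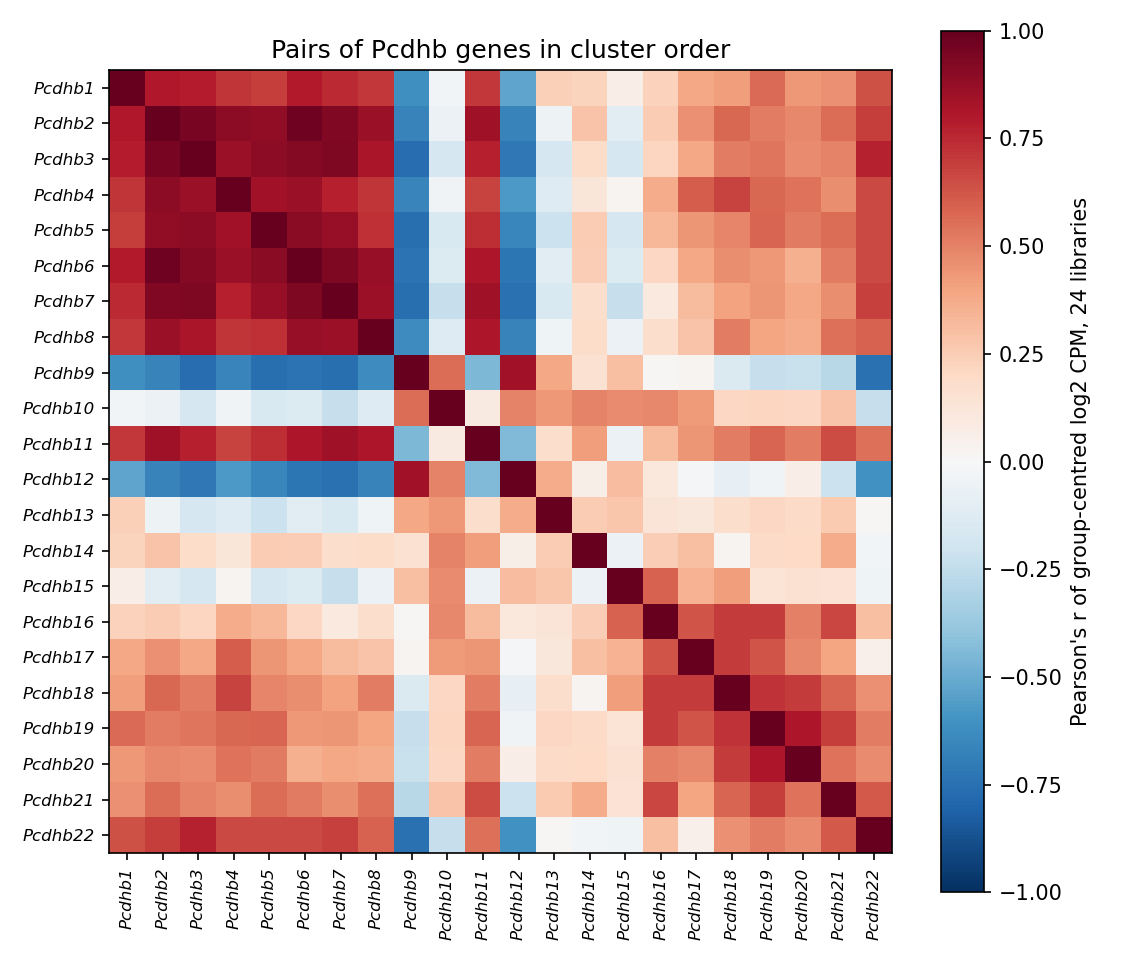
Pearson's r between Pcdhb genes across 24 libraries after the group means were taken out (colour), with genes in cluster order on both axes. Pcdhb2 to Pcdhb8 have r from 0.712 to 0.970 with each other, Pcdhb1, Pcdhb11 and Pcdhb22 are positive with them, and Pcdhb9 and Pcdhb12 are negative against it.

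The summed level of Pcdhb2 to Pcdhb8 was set against 6 library measures by permutation, adjusted over the 6. The correlation was 0.146 (rho 0.122) with the rRNA-like share, 0.170 (rho 0.130) with the total count and -0.33 (rho -0.24) with the striatal list. It was -0.47 (rho -0.44) with the list of excitatory neuron markers, with adjusted p of 0.120 for r and 0.191 for rho, and -0.34 without the 2 most extreme libraries. None of the 6 passed an adjusted p of 0.05.

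The genes most like Pcdhb3 across the 24 libraries, after group means were taken out and with the rows inside the clusters left out, lay largely on the same chromosome. Of the 20 most like it, 15 were on chromosome 18, which holds 2.32% of the other tested genes. They were spread from 10.3 to 50.04 megabases, around the clusters at 36930184 to 37841873. The ranking used the absolute correlation, so that genes running against Pcdhb3 count as well. The 3 highest were Camk4, a calcium-dependent kinase of neurons, at a correlation of -0.85, Greb1l at 0.846 and Abhd3 at 0.831. These genes were chosen for naming after their values were seen. The same count was 12 of 20 for Pcdhb5, 11 for Pcdhb7 9 for Pcdhb2, 8 for Pcdhb9 and 7 for Pcdhb12. It was 7 for Pcdhb6 and Pcdhb8, 5 for Pcdhb22, 4 for Pcdhb4 and 0 to 2 for the other Pcdhb genes. It was 0 to 2 for the Pcdha and Pcdhg rows, and 0 to 3 for each nonclustered member on its own chromosome. The labels give 1 background strain for all mice, and the genotype of chromosome 18 in single mice was not tested.

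Genes known to act with protocadherins were read from lists chosen for the pathway. Their counts stand beside 5.74% of all tested genes called between genotypes in control mice, 5.8% in induced mice and 13.8% on average. Of 18 regulators of promoter choice and chromatin, 1 was called in induced mice, Wiz, a zinc-finger partner of histone methyltransferases, at -0.19 ± 0.05 (adjusted p 0.0203), while Smchd1 was at -0.11 ± 0.04 (adjusted p 0.0961). On average over treatments 3 of the 18 were called, Wiz at -0.16 ± 0.03 (adjusted p 0.00139), the cohesin subunit Rad21 at 0.07 ± 0.02 (adjusted p 0.0152) and the methyltransferase Dnmt1 at -0.08 ± 0.02 (adjusted p 0.0204). Ctcf was not called in any comparison. The summed level of the 18 ran from 1253 to 1312 CPM in WT control and from 1251 to 1340 in R47H induced.

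Of 22 membrane and cytoplasmic partners, 1 was called in control mice, the receptor kinase Ret, which forms complexes with Pcdha and Pcdhg proteins, at 0.47 ± 0.12 (adjusted p 0.0197). In the same comparison Wasf1 was at -0.08 ± 0.03 (adjusted p 0.0634). Ret was called neither in induced mice, where the highest log2 fold change of the list was 0.09, nor on average over treatments. In induced mice Cyfip1 was called at -0.09 ± 0.03 (adjusted p 0.0447) and Brk1 was at 0.09 ± 0.03 (adjusted p 0.0601). Both belong to the WAVE complex, which several protocadherins bind through their cytoplasmic part. On average 4 of the 22 were called, Brk1 higher at 0.08 ± 0.02, and Cyfip1 at -0.08 ± 0.02, Wasf1 at -0.06 ± 0.02 and Ptk2 at -0.06 ± 0.02 lower, with adjusted p from 0.00754 to 0.0393.

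Among other cadherins, 1 of 17 classical cadherins was called on average, Cdh7 at -0.12 ± 0.04 (adjusted p 0.0281), while Cdh6 was at -0.13 ± 0.05 (adjusted p 0.0674). Of 9 Fat, Dachsous and Celsr cadherins, Fat3, which shapes dendrites, was called in induced mice at -0.17 ± 0.04 (adjusted p 0.00654), where Fat2 was at 0.57 ± 0.28 (adjusted p 0.245). On average 2 of the 9 were called, Fat3 at -0.12 ± 0.03 and Fat2 at 0.61 ± 0.20. None of these 4 lists had a called gene on induction in either genotype, where 0% of all genes were called.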

How the data were processed

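Bulk RNA sequencing libraries of mouse cortex, 6 mice in each of 4 groups, were grouped by the genotype and treatment labels. Trizol extraction, DNase treatment and poly-A selection are given in the labels' protocols, and the kit used does not mark strand. The authors deposited whole-number read counts per gene, not normalized; mm10, STAR 2.5.2b and featureCounts 1.5.1 appear in the submitters' processing notes, while counting options were not given in the sources used. The length column of the deposited table was used for levels per kilobase.

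Counts were scaled by TMM, filtered with filterByExpr (19678 genes kept) and compared in R 4.3.3 by the quasi-likelihood test of edgeR 4.0.16, with robust dispersion, in 1 fit over 24 libraries for 7 comparisons, with Benjamini-Hochberg adjustment over all tested genes and calls at an adjusted p below 0.05. The procedure was tested on simulated data. CPM are relative to the scaled library total. Two-sided permutation tests drew 100000 permutations. DESeq2 1.42.0 and limma 3.58.1 were alternatives. The 60 within-group pairs of libraries differed by more than sampling noise (chi-square per degree of freedom 4.31 to 61.7) and each counted as 1 replicate, a separate mouse per the series text. No column of the table was left unused.

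Gene IDs were matched to GENCODE vM21 and promoters to RefSeq by symbol. Genes named are those called, the 3 with the lowest p in each comparison, the nonclustered and C-type members, and the extremes of level; of the other lists, the called genes and those among the 2 with the lowest p. The members and lists were chosen with earlier results of these data known.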

Additional observations from a re-analysis of the deposited data

Results flagged for a closer look

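Of 144 groups checked (36 genes, namely the Pcdhb and nonclustered members and 1 row each of Pcdha and Pcdhg, 4 groups each), 7 held a library set apart from the other 5 of its group, where chance alone gives about 1 in 20. Pcdh17 had a high value of 103 CPM in WT induced replicate 5, with the next at 97.9. Without that library its log2 fold change in R47H against WT was -0.16 in induced mice, and the edgeR adjusted p was at most 0.00200 with any 1 library left out. Pcdhb4 had a low value of 3.40 CPM in WT control replicate 2, with the next at 4.69. Pcdhb10 was high at 4.99 CPM in R47H control replicate 3 and Pcdhb21 was high at 7.89 CPM in R47H control replicate 2. Pcdhb13 was low at 5.87 CPM in R47H induced replicate 5. Pcdhgb4, the lowest row of its cluster, was high at 332 CPM in WT control replicate 6. Pcdh12, with at most 18 reads in a library, was high at 0.307 CPM in R47H induced replicate 3.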

How the results depend on the processing

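The numbers of members called by edgeR changed as follows. In R47H against WT in control mice, 3 were called, 9 with library totals only (1 higher, 8 lower) and 0 with the rRNA-like share or the striatal list as a covariate. In induced mice 2 were called, and 1 with all genes that had at least 1 count, with the striatal covariate or with limma-voom. The shares of all tested genes called in these were 2.72%, 1.08% and 5.84%. At an adjusted p below 0.1, 4 members were called, beside 9.42% of all tested genes. On average over treatments 13 were called, beside 13.8% of all tested genes. With all genes that had at least 1 count 8 were called, beside 6.71%, and with the striatal covariate 0, beside 2.23%. In an alternative chosen after seeing the data, 20 of 69 were called with the rows under upper-case names, beside 13.8%. The Pcdha rows among those added count the shared reads of their cluster again. With Pcdha and Pcdhg rows as reads beyond the lowest row, also chosen after seeing the data, 6 were called, beside 13.8%. In the last of these the lowest rows themselves stayed at their full counts. On induction in WT and for the difference of inductions 0 were called, and 1 (Pcdh17) with DESeq2. For the other alternatives the counts stayed within 1.5 times, and induction in R47H and induction averaged over genotypes gave 0 under each alternative tried. With each library left out in turn the counts ran from 2 to 3 in control mice, from 1 to 3 in induced mice and from 9 to 13 on average, and were 0 to 0 for induction in WT, in R47H, averaged and for the difference. Of the log2 fold changes of named members under the alternatives, 945 kept direction and side of the threshold, 79 lost the call, 8 gained it and 0 changed sign. With the striatal covariate the share of all genes called also fell, to 0.838% in control mice, 1.08% in induced mice and 2.23% on average. The cause of these changes was not tested. Counts of the Pcdha and Pcdhg rows limit those clusters to about 1 measurement each, and Pcdh12 and Pcdhb1 had few reads. The count rule at 12 libraries left 55 members and any count above 0 left 56. No paired analysis was possible because the labels give no replicate numbers shared between groups.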
